A study of Mus musculus with 7 samples.

Results

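Ezrin (Ezr), radixin (Rdx) and moesin (Msn) are the 3 closely related ERM proteins, and they are described here with merlin (Nf2), villin (Vil1) and the scaffold NHERF1 (Slc9a3r1) in RNA from the retinal pigment epithelium (RPE) of aged mice. The 6 genes were taken by symbol from a table of 21861 rows, and all 6 passed the filter on low counts, which 15075 rows passed. Ezr was chosen by its measured level, which was higher in the AAV-GSTA4 than the AAV-GFP libraries, so that difference is given below as a description with no test. The other 5 genes are its relatives and partners. The tissue came from old mice whose RPE had been exposed to an adeno-associated virus (AAV) vector for GFP, the control, or for GSTA4, a glutathione transferase that conjugates lipid aldehydes; every library was taken 12 weeks after treatment. There were 3 AAV-GFP libraries and 4 AAV-GSTA4 libraries, and both groups carry a vector, so an untreated eye is not part of the comparison. Strain, sex, age in months, promoter, dose and the pooling of eyes are not given in the sources used here. Nothing states that replicates are separate animals, so the p-values measure only the spread between these libraries.

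ERM proteins link actin filaments to the plasma membrane. An amino-terminal FERM domain binds membrane proteins and phosphoinositides, and a carboxy-terminal tail binds actin; in the inactive protein the tail folds back onto the FERM domain, and phosphorylation of a threonine in the tail holds the protein open. The RPE extends long apical microvilli around photoreceptor outer segments, and ezrin is a major protein of those microvilli: mice that lack it form fewer and shorter ones. NHERF1 is a PDZ-domain adaptor that binds the FERM domain and ties ezrin to transporters and, in the RPE, to the retinoid-binding protein CRALBP. Merlin shares the FERM fold and acts as a growth suppressor upstream of the Hippo pathway. Villin bundles and severs actin in intestinal and renal brush borders.

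The stretch around the regulatory threonine shows how alike the 3 ERM genes are. Coding bases are printed from 4 codons before the threonine to 7 codons after it, from GENCODE M21 transcripts (build GRCm38), with the threonine codon in capitals.
Ezr: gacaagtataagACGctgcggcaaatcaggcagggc
Rdx: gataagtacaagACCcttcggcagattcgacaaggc
Msn: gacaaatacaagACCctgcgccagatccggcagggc
The capital codon is number 567 in Ezr, 564 in Rdx and 558 in Msn. Of the 36 bases, 25 were identical in all 3 genes, and all 3 stretches encode the same residues. The same search did not find this stretch in Nf2. Over the whole coding sequence Ezr shared 73.8% of aligned bases with Msn and 70.4% with Rdx, and Rdx shared 71.9% with Msn, whereas Ezr shared 63.9% with Nf2. The longest run of bases found in both of any pair of ERM transcripts was 32, between Ezr and Msn, against 18 between Rdx and Msn and 15 between Ezr and Rdx. Reads longer than that run can be told apart where they match perfectly; the read length and the rule for reads with several matches are not given in the sources used here.

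In the GENCODE M21 annotation of GRCm38 Ezr lies on the minus strand at chr17:6738041-6782784, Rdx on the plus strand at chr9:52047173-52088735 and Msn on the plus strand at chrX:96096042-96168552. Nf2 lies on the minus strand at chr11:4765845-4849536, Vil1 on the plus strand at chr1:74409376-74435559 and Slc9a3r1 on the plus strand at chr11:115163341-115181181. All 6 are annotated as protein-coding.

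Total counts per library lay between 15329181 and 28998964. The hGSTA4 row, read from its name as the transgene, held 3, 1 and 1 counts with AAV-GFP and 4209, 5239, 45 and 1184 counts with AAV-GSTA4, so replicate 3 of the second group carried little of it. The d2EGFP row, read from its name as the control's reporter, held 99, 3970 and 2361 counts with AAV-GFP and 163, 64, 7 and 26 with AAV-GSTA4, so AAV-GFP replicate 1 did not stand above the other group. Without AAV-GSTA4 replicate 3 the log2 fold changes of Ezr, Slc9a3r1 and Nf2 were 0.91, 0.75 and 0.57, and without AAV-GFP replicate 1 they were 1.07, 0.97 and 0.61. AAV-GFP replicate 3 stood apart over all genes, with a mean correlation of 0.838 with the other libraries against 0.910 to 0.926 for the other 6, and with a scaling factor of 1.36 against 0.868 to 1.05. Of 12 RPE markers, none was at 0 in any library, but Best1, a chloride channel of the RPE, was low in both groups at 2.27 and 2.46 CPM, that is, counts scaled to a common library total. In bulk tissue, fewer cells of a type and less RNA per cell cannot be told apart. Across all genes tested, 0 passed edgeR's quasi-likelihood test at a Benjamini-Hochberg adjusted p of 0.05; 1794 (11.9%) had an unadjusted p under that level, and DESeq2 called 166 (1.10%).

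Ezr was higher in every AAV-GSTA4 library than in any AAV-GFP library. Its level, as CPM scaled by the trimmed mean of M-values (TMM), was 436, 448 and 314 in AAV-GFP replicates 1, 2 and 3. Across AAV-GSTA4 replicates 1 through 4 it was 962, 627, 974 and 641. The groups did not overlap, and the AAV-GSTA4 libraries fell into a higher pair, replicates 1 and 3, and a lower pair, replicates 2 and 4. The means were 399 CPM ± 74.1 (SD, n = 3) and 801 CPM ± 193 (SD, n = 4), which gave a log2 fold change of 1.00 ± 0.29 (SE), or 2.00-fold. Of all genes tested, 6.50% were likewise higher in AAV-GSTA4 without overlap; since Ezr was chosen for this difference, nothing is read from that share.

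The hGSTA4 and ocular surface levels of the same libraries are given beside Ezr as measured values. hGSTA4 was at 221, 251, 2.64 and 43.7 CPM across AAV-GSTA4 replicates 1 through 4. The 7 markers of the ocular surface epithelium, mostly keratins, summed to 70.7, 640.1, 83.7 and 831 CPM in these libraries and to 518 to 752 CPM in AAV-GFP, and Trp63 was the only one of the 7 at 0 in any library. With that marker level as a covariate, chosen after these values were seen, the log2 fold change of Ezr was 0.72 ± 0.32 (SE). What set the 2 pairs of AAV-GSTA4 libraries apart was not tested.

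**Figure D1:**
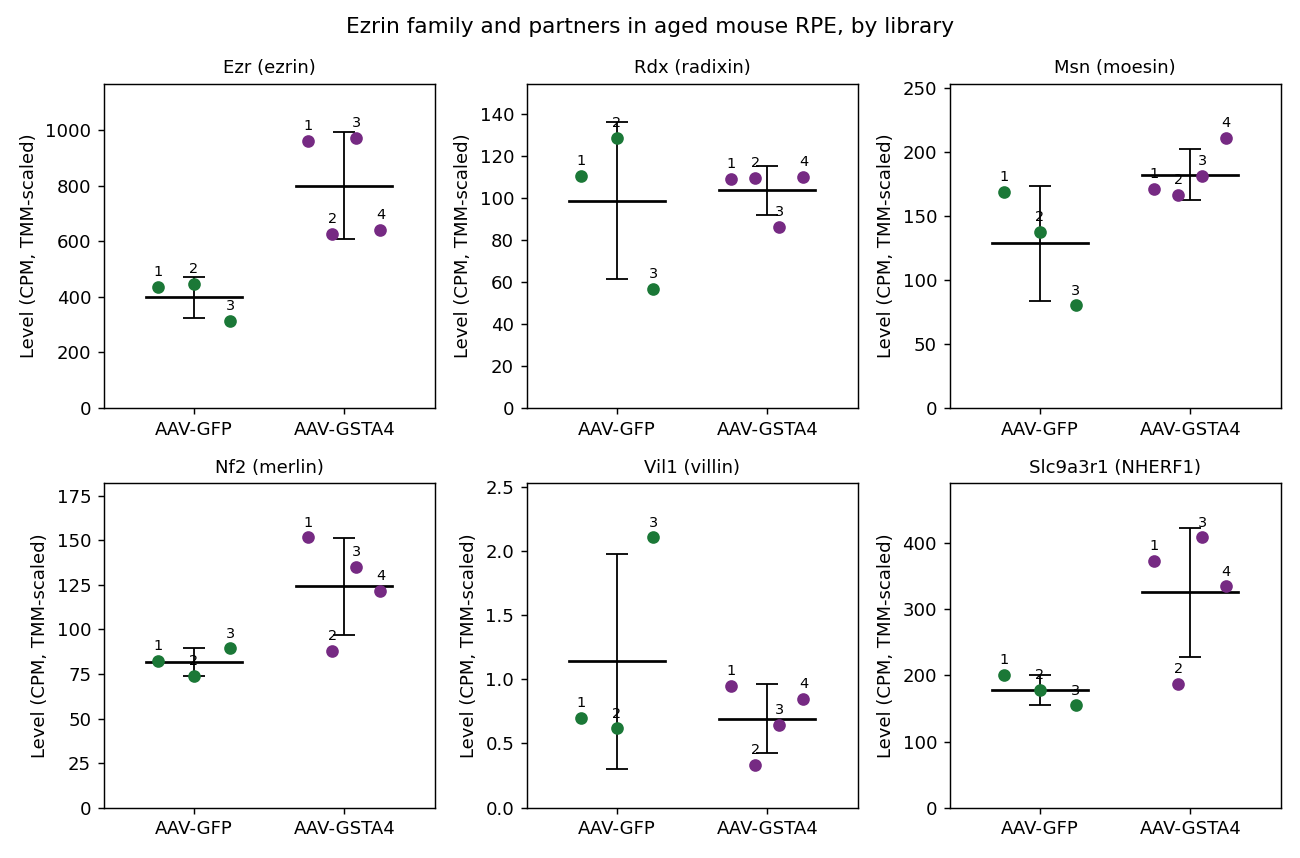
Level of each of the 6 genes (vertical axis, TMM-scaled CPM, starting at 0 and scaled separately for each gene) in the 3 AAV-GFP and 4 AAV-GSTA4 libraries; numbers are replicates, the long bar is the group mean and the whiskers are 1 SD. Ezr is the gene whose groups do not overlap, with AAV-GFP at 314 to 448 CPM and AAV-GSTA4 at 627 to 974 CPM, and AAV-GSTA4 replicate 2 is the lowest of its group for Ezr, Nf2, Vil1, Slc9a3r1 and Msn.

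The other ERM genes had smaller fitted fold changes than Ezr. Rdx, which is the ERM protein of stereocilia and of bile canaliculi, was at 110.3, 129 and 56.6 CPM across AAV-GFP replicates 1, 2 and 3, in order. Across AAV-GSTA4 replicates 1 through 4 it was at 109, 109, 86.0 and 109.95 CPM. The AAV-GSTA4 libraries lay inside the range of the AAV-GFP libraries. The log2 fold change of Rdx was 0.07 ± 0.28 (SE), at an edgeR adjusted p of 0.940. Its direction depended on AAV-GFP replicate 3: without that library the log2 fold change was -0.20 ± 0.19 (SE), and with library totals in place of TMM it was -0.17.

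Msn, the ERM protein most abundant in leukocytes and endothelium, was at 169, 137 and 80.0 CPM across AAV-GFP replicates 1, 2 and 3, in order. It was at 171, 166, 181 and 211 CPM across AAV-GSTA4 replicates 1 through 4. AAV-GFP replicate 1 lay above AAV-GSTA4 replicate 2, so the groups overlapped. The log2 fold change was 0.50 ± 0.27 (SE), at an edgeR adjusted p of 0.487. Without AAV-GFP replicate 3 it was 0.26 ± 0.19 (SE), and with rod markers as a covariate it was -0.079 ± 0.26 (SE).

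The markers of cells rich in moesin were counted in the same libraries. The 10 macrophage markers summed to 401 to 739 CPM in AAV-GFP and 607 to 861 CPM in AAV-GSTA4, with 1 of 10 higher and 9 lower in AAV-GSTA4 by the fitted fold change and 0 past the adjusted threshold. The gene that was higher, Csf1r, was at 208 CPM in AAV-GFP and 449.5 CPM in AAV-GSTA4 on average. The 10 endothelial markers summed to 40.1 to 180.0 CPM in AAV-GFP and 44.1 to 63.9 CPM in AAV-GSTA4, with 1 higher and 9 lower. No marker of either list was at 0 in any library, and the part of these cells in the Msn level was not tested.

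The mix of the 3 ERM genes was taken from their summed read counts. Ezr held 61.0%, 62.8% and 69.7% of them across AAV-GFP replicates 1, 2 and 3, and 77.5%, 69.5%, 78.5% and 66.7% across AAV-GSTA4 replicates 1 through 4. The ranges overlapped, with AAV-GFP replicate 3 above AAV-GSTA4 replicates 2 and 4. Rdx held 12.6% to 18.01% in AAV-GFP and 6.93% to 12.1% in AAV-GSTA4, without overlap, and Msn held 17.8% to 23.6% and 13.7% to 21.9%. These shares contain the Ezr counts that led to its choice, so no test is attached to them.

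Slc9a3r1, the gene of the ezrin-binding adaptor NHERF1, was higher in 3 of the 4 AAV-GSTA4 libraries than in any AAV-GFP library. It was at 201.1, 178 and 155 CPM across AAV-GFP replicates 1, 2 and 3, in order. Across AAV-GSTA4 replicates 1 through 4 it was at 374, 187, 409 and 335 CPM. Replicate 2 of AAV-GSTA4 lay among the AAV-GFP libraries, and the others lay above all of them. The means were 178 CPM ± 23.2 (SD, n = 3) and 326 CPM ± 97.7 (SD, n = 4), which gave a log2 fold change of 0.87 ± 0.30 (SE), at an edgeR adjusted p of 0.370. With RPE markers as a covariate it was 0.46 ± 0.32 (SE).

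Nf2, the gene of merlin, lay at a lower level than Slc9a3r1. It was at 82.4, 73.8 and 89.4 CPM across AAV-GFP replicates 1, 2 and 3, in order. Across AAV-GSTA4 replicates 1 through 4 it was at 152, 87.9, 135 and 122 CPM. As for Slc9a3r1, AAV-GSTA4 replicate 2 was the single library of its group inside the AAV-GFP range. The means were 81.9 CPM ± 7.77 (SD, n = 3) and 124 CPM ± 27.0 (SD, n = 4), which gave a log2 fold change of 0.60 ± 0.23 (SE), at an edgeR adjusted p of 0.383. With library totals in place of TMM it was 0.29 ± 0.26 (SE), where AAV-GFP replicate 3 reached 122 CPM of its total, and with the ocular surface markers as a covariate it was 0.39 ± 0.25 (SE).

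AAV-GSTA4 replicate 2 was also the library with the most lens RNA. The 8 lens markers summed to 106401 CPM in it, against 4217 to 23935 CPM in the other 3 AAV-GSTA4 libraries and 2798 to 11544 CPM in AAV-GFP; Cryga and Lim2 were at 0 in some libraries. Without this library the log2 fold changes were 1.08 ± 0.24 (SE) for Slc9a3r1 and 0.75 ± 0.21 (SE) for Nf2, with edgeR adjusted p of 0.324 and 0.346. Without it and AAV-GFP replicate 3 they were 0.98 and 0.81, with adjusted p-values of 0.134 and 0.147. None of these passed the threshold.

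Of the 5 genes other than Ezr, 0 passed the adjusted threshold in edgeR, against 0% of all genes tested, and 0 passed in DESeq2, against 1.10%; DESeq2 gave Vil1 no adjusted p. At an unadjusted p-value under 0.05, 2 of the 5, Slc9a3r1 and Nf2, were higher in AAV-GSTA4 and 0 were lower, where 5.27% and 6.63% of all genes were. In 0 of the 5 did the groups fail to overlap. The genes were listed with earlier results of these data known, so the count describes them and is no independent evidence.

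Vil1 was close to the limit of detection. It had 15, 16 and 44 counts across AAV-GFP replicates 1, 2 and 3, in order, and 18, 7, 11 and 23 counts across AAV-GSTA4 replicates 1 through 4. The lowest library, AAV-GSTA4 replicate 2, was at 0.336 CPM (95% Wilson interval 0.163 to 0.693), and the highest, AAV-GFP replicate 3, was at 2.10 CPM (1.57 to 2.83). The other 5 libraries lay between 0.618 and 0.947 CPM. The log2 fold change was -0.71 ± 0.82 (SE), at an edgeR adjusted p of 0.755, and it was 0.079 without AAV-GFP replicate 3. The intervals of these 2 libraries did not overlap, so the spread between libraries exceeded counting error. For the other 5 genes the Wilson interval widest for its value was that of Rdx in AAV-GFP replicate 3, 53.5 to 59.9 CPM around 56.6 CPM. Such intervals cover counting error only, since amplified copies of a molecule are counted separately.

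Levels of different genes were compared per kilobase of annotated exon. In AAV-GFP Ezr was highest at 121 CPM per kilobase ± 22.5 (SD, n = 3), followed by Slc9a3r1 at 92.5 ± 12.1. Rdx at 21.2 ± 8.06 and Msn at 20.3 ± 7.10 came next and did not differ beyond their spread, and Nf2 stood at 12.0 ± 1.14 and Vil1 at 0.321 ± 0.235. In AAV-GSTA4 the order was Ezr at 243 CPM per kilobase ± 58.6 (SD, n = 4), Slc9a3r1 at 169 ± 50.8, Msn at 28.8 ± 3.18, Rdx at 22.3 ± 2.52, Nf2 at 18.2 ± 3.95 and Vil1 at 0.195 ± 0.0760. The ranges of Ezr and Slc9a3r1 overlapped in both groups: in AAV-GFP they were 95.4 to 136 and 80.3 to 104, and in AAV-GSTA4 191 to 296 and 97.0 to 212. Ezrin was thus the most abundant ERM transcript per length in every library, and the exon lengths are those of GENCODE M21, which may not be the annotation the counts used.

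The 3 genes with the higher values were set beside the RPE marker level of the same library. The 12 RPE markers summed to 66789, 52192 and 21523 CPM across AAV-GFP replicates 1, 2 and 3, in order. Across AAV-GSTA4 replicates 1 through 4 they summed to 78771, 58120, 106335 and 87048 CPM. On average, most of the sum came from Rgr, Ttr and Rpe65. Rgr alone averaged 26143 CPM in AAV-GFP and 49070 CPM in AAV-GSTA4. Ttr averaged 10044 and 14875 CPM, and Rpe65 5251 and 8576 CPM, in the same order. By the fitted fold change 11 of the 12 were higher in AAV-GSTA4, the median log2 fold change being 0.69, and 0 passed the adjusted threshold. Per 1000 CPM of RPE markers Ezr was at 6.52, 8.58 and 14.6 CPM in AAV-GFP and at 12.2, 10.8, 9.16 and 7.37 CPM in AAV-GSTA4. On this scale the groups overlapped, with AAV-GFP replicate 3, which had the fewest RPE marker counts, the highest of all 7. Slc9a3r1 was at 3.01, 3.42 and 7.18 CPM per 1000 in AAV-GFP and at 4.75, 3.21, 3.85 and 3.85 in AAV-GSTA4. Nf2 was at 1.23, 1.41 and 4.15 in AAV-GFP and at 1.92, 1.51, 1.27 and 1.40 in AAV-GSTA4. For these genes too the groups overlapped, with AAV-GFP replicate 3 the highest library. With the RPE marker level as a covariate the log2 fold changes were 0.66 ± 0.26 (SE) for Ezr, 0.46 ± 0.32 (SE) for Slc9a3r1 and 0.56 ± 0.30 (SE) for Nf2.

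**Figure D2:**
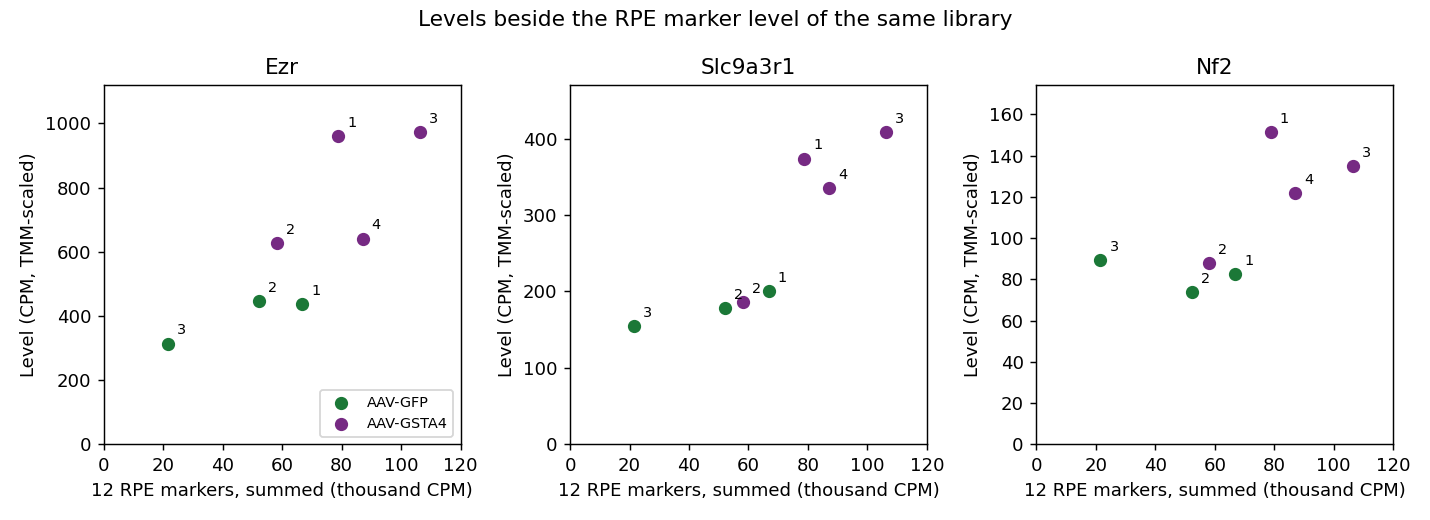
Level of Ezr, Slc9a3r1 and Nf2 (vertical axes, TMM-scaled CPM) against the summed level of 12 RPE markers (horizontal axis, CPM divided by 1000) in each of the 7 libraries, both axes starting at 0; numbers are replicates. AAV-GFP replicate 3, with the fewest RPE marker counts (21523 CPM), has the lowest Ezr and Slc9a3r1 but not the lowest Nf2, and AAV-GSTA4 replicate 3, with the most (106335 CPM), has the highest Ezr and Slc9a3r1.

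Marker levels of other cell types of the eye also differed between the groups. The 10 rod markers summed to 11569 to 34992 CPM in AAV-GFP and 6194 to 11621 CPM in AAV-GSTA4, with 10 of 10 lower in AAV-GSTA4 by the fitted fold change. The 10 genes listed for Mueller glia summed to 5434 to 8799 CPM in AAV-GFP and 9307 to 13517 CPM in AAV-GSTA4, with 6 higher and 4 lower. Most of that sum came from Apoe and Car14, which the RPE also expresses, while Slc1a3, the glial glutamate transporter, was at 66.4 CPM in AAV-GFP and 24.6 CPM in AAV-GSTA4. None of the rod or glial markers was at 0 in any library. With the rod marker level as a covariate the log2 fold change was 0.96 ± 0.38 (SE) for Ezr, 0.71 ± 0.40 (SE) for Slc9a3r1 and 0.71 ± 0.32 (SE) for Nf2, and it was below 0 for Msn, at -0.079, and for Rdx, at -0.38. Y-linked counts divided the libraries across both groups. Among libraries with such counts (AAV-GFP replicate 1, AAV-GSTA4 replicates 3 and 4) the difference in mean log2 CPM was 0.86 for Ezr, 0.88 for Slc9a3r1, 0.64 for Nf2, 0.21 for Msn, -0.18 for Rdx and 0.08 for Vil1. Among the other 4 it was 1.05, 0.67, 0.51, 0.68, 0.36 and -0.91 in the same order.

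**Figure D3:**
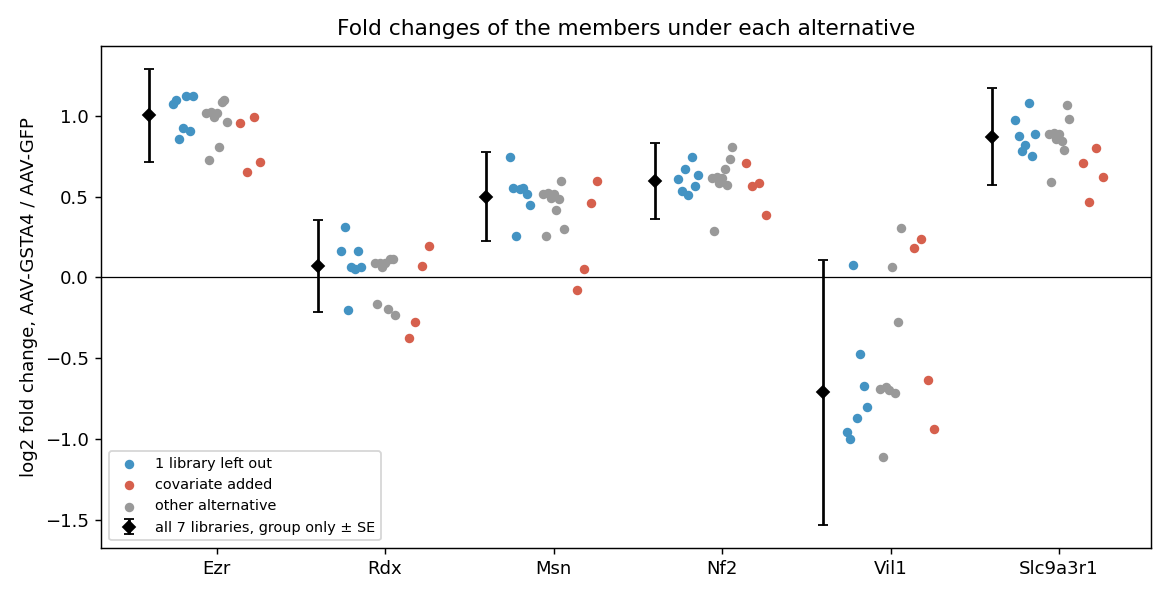
log2 ratio of AAV-GSTA4 to AAV-GFP for each of the 6 genes (vertical axis) with all 7 libraries and the group alone (diamond, ± SE), with 1 library left out (blue), with a covariate added (red) and under the other alternatives (grey). Every point lies above 0 for Ezr (lowest 0.66), Slc9a3r1 (lowest 0.46) and Nf2 (lowest 0.29), whereas Rdx, Msn and Vil1 have points on both sides of 0.

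The genes around the 6 were followed in 7 lists. None of the tested genes of these lists passed edgeR's adjusted threshold, as for 0% of all genes, so the following gives counts of fitted fold changes. Over all genes 44.6% had a positive fold change and the median log2 fold change was -0.07. As to groups without overlap, 6.50% of all genes were higher and 5.57% lower in AAV-GSTA4.

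Regulators of ERM activation (kinases, lipid kinases and small GTPase signalling, and also the myosin phosphatase subunits Ppp1cb and Ppp1r12a, which act the other way) were represented by 16 genes, all tested, of which 9 were higher and 7 lower, the median log2 fold change being 0.18. In 3 the AAV-GSTA4 libraries lay above all AAV-GFP libraries. Prkcq, a protein kinase C isoform able to phosphorylate the regulatory threonine, averaged 146 CPM ± 51.4 (SD, n = 3) with AAV-GFP against 251 CPM ± 24.3 (SD, n = 4) with AAV-GSTA4, with a log2 fold change of 0.78 ± 0.28 (SE). Pip5k1b, which makes the phosphoinositide that FERM domains bind, was at 122 CPM ± 50.1 and 201 CPM ± 27.8. Arhgdia, whose product ERM proteins bind, was at 184 CPM ± 11.8 and 264 CPM ± 31.2. Their adjusted p-values in edgeR's test were 0.374, 0.413 and 0.393. Without AAV-GFP replicate 3 the log2 fold change of Prkcq was 0.52 and that of Pip5k1b went from 0.72 to 0.41. With the RPE marker covariate they were 0.34 and 0.11, with the rod marker covariate 0.30 and 0.16, and that of Arhgdia went from 0.52 to 0.22 with library totals. Of the main ERM kinases, Slk was at 39.0 CPM ± 12.2 and 45.9 CPM ± 2.58, and Stk10 at 3.50 CPM ± 0.752 and 6.03 CPM ± 2.40, with overlapping groups for both. Prkca, a relative of Prkcq in the list, had a log2 fold change of -0.97 ± 0.44 (SE). Of the relatives of Pip5k1b, Pip5k1c had -0.66 ± 0.47 (SE) and Pip5k1a 0.25 ± 0.23 (SE). The groups overlapped for each of these relatives.

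Membrane proteins that ERM proteins anchor were 14, of which 12 were tested, with 7 higher, 5 lower, the median log2 fold change being 0.31. Sdc2, a heparan sulfate proteoglycan, was at 244, 222 and 100.03 CPM across AAV-GFP replicates 1, 2 and 3, in order, and at 273, 321, 344 and 307 CPM across AAV-GSTA4 replicates 1 through 4. The groups did not overlap, and the log2 fold change was 0.72 ± 0.31 (SE), at an edgeR adjusted p of 0.411. It was 0.42 without AAV-GFP replicate 3, and 0.17 and 0.22 with the rod and RPE marker covariates. The other gene of the list without overlap was Selplg, a selectin ligand of leukocytes, named after its values were seen, which was lower in AAV-GSTA4 at 7.11 CPM ± 1.14 against 11.1 CPM ± 1.11, with a log2 fold change of -0.64 ± 0.29 (SE).

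Scaffold partners were 8, of which 7 were tested, with 5 higher, 2 lower, the median log2 fold change being 0.10. The 2 NHERF genes had fold changes of opposite sign. Slc9a3r2, the gene of NHERF2, averaged 15.8 CPM ± 1.39 (SD, n = 3) with AAV-GFP against 9.27 CPM ± 3.31 (SD, n = 4) with AAV-GSTA4, with every AAV-GSTA4 library below every AAV-GFP library, a log2 fold change of -0.77 ± 0.33 (SE), at an edgeR adjusted p of 0.4004. The log2 fold change of Slc9a3r1 was 0.87, and the difference between the 2 genes was not tested. Patj, a polarity scaffold of the apical membrane, was at 20.4 CPM ± 6.31 and 31.3 CPM ± 3.88, without overlap, and its log2 fold change went from 0.61 to 0.39 without AAV-GFP replicate 3 and to 0.25 with the rod marker covariate. Rlbp1, the gene of the NHERF1 ligand CRALBP, was at 2848, 2515 and 1708 CPM across AAV-GFP replicates 1, 2 and 3, in order, and at 4341, 2776, 4895 and 3935 CPM across AAV-GSTA4 replicates 1 through 4, where replicate 2 again fell inside the AAV-GFP range.

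The core of the microvillus (actin bundlers, unconventional myosins and adhesion complexes) was represented by 31 genes, of which 26 were tested. Of these 8 were higher and 18 lower, the median log2 fold change being -0.17, so the list did not share the sign of Ezr. Without overlap 3 were higher and 3 lower. Myo7a, the myosin that moves melanosomes into the apical processes of the RPE, was at 62.4, 61.7 and 49.4 CPM across AAV-GFP replicates 1, 2 and 3, in order, and at 102, 79.3, 124 and 129 CPM across AAV-GSTA4 replicates 1 through 4. Its log2 fold change was 0.91 ± 0.23 (SE), at an edgeR adjusted p of 0.363, and in DESeq2 it passed with an adjusted p-value of 0.0354 (0.0354 to 0.865 over all alternatives). With the RPE and rod marker covariates it was 0.59 and 0.62. Ush1c, a partner of Myo7a in stereocilia, was at 0.678 CPM ± 0.554 and 2.45 CPM ± 0.201. In AAV-GFP it was close to the limit of detection, with 27, 4 and 13 counts across replicates 1, 2 and 3. Across AAV-GSTA4 replicates 1 through 4 it had 44, 47, 43 and 73 counts. The log2 fold change of Ush1c was 1.85 ± 0.78 (SE), and DESeq2 gave it no adjusted p. Ush1c had no value with at least 10 counts required in every library. The 3 lower genes were Prom1, a protein of membrane protrusions that photoreceptors use to form discs, at 451 CPM ± 165 and 226 CPM ± 30.8, Baiap2, a membrane-bending adaptor, at 13.3 CPM ± 5.07 and 5.68 CPM ± 1.54, and Eps8, an actin-capping and bundling protein, at 22.9 CPM ± 4.67 and 11.2 CPM ± 5.17. All 10 rod markers were lower by the fitted fold change. For Prom1 the log2 fold change, -0.996 ± 0.28 (SE), was -0.34 ± 0.28 (SE) with the rod marker covariate, -0.43 with the RPE marker covariate and -0.66 without AAV-GFP replicate 3. For Baiap2 it was -1.22, against -0.72 and -0.57 with the rod and RPE covariates. For Eps8 it was -1.03 ± 0.37 (SE), and it was -1.30 ± 0.56 (SE) with the rod covariate and -0.73 ± 0.46 (SE) with the RPE covariate. The intestinal brush-border genes Myo7b, Anks4b, Cdhr2, Cdhr5 and Eps8l3 did not pass the filter on low counts.

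Relatives of villin in the gelsolin family were 7, all tested, with 4 higher, 3 lower, the median log2 fold change being 0.19. The groups did not overlap for 1 higher gene and for 0 lower genes. No gene of this list met the conditions for naming, and the one with the largest change was Scin, the gene of the actin-severing protein scinderin. It was at 12.5, 7.87 and 5.93 CPM across AAV-GFP replicates 1, 2 and 3, in order, and at 1.16, 8.92, 0.822 and 7.85 CPM across AAV-GSTA4 replicates 1 through 4. AAV-GSTA4 replicates 1 and 3 were low and the groups overlapped. The log2 fold change, -0.90 ± 0.77 (SE), was -0.15 with the ocular surface marker covariate, chosen after the values were seen, -2.04 with the rod marker covariate, and -2.07 and -2.17 with the replicate blocks. Leaving out single libraries gave -1.41 without AAV-GSTA4 replicate 2, -0.55 without AAV-GFP replicate 1, and -0.56 and -0.54 without AAV-GSTA4 replicates 1 and 3. The cause was not tested.

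The wider FERM-domain family was represented by 30 genes, all tested, with 12 higher, 18 lower, the median log2 fold change being -0.16. Groups without overlap were found for 4 higher genes and 1 lower gene, not all of which are named below. Frmpd4 averaged 17.8 CPM ± 1.76 (SD, n = 3) with AAV-GFP against 31.3 CPM ± 4.37 (SD, n = 4) with AAV-GSTA4, and Fermt2, a kindlin that activates integrins, averaged 68.8 CPM ± 19.998 and 116 CPM ± 13.7, both without overlap. For Fermt2 the log2 fold change, 0.75, was 0.34 and 0.38 with the RPE and rod marker covariates, and that of Frmpd4, 0.82, was 0.52 with library totals. Ptpn4, a FERM-domain tyrosine phosphatase, was at 25.4 CPM ± 3.81 and 12.8 CPM ± 1.89, also without overlap, with a log2 fold change of -0.995 ± 0.24 (SE), at an edgeR adjusted p of 0.363. Ptpn4 passed in DESeq2 with an adjusted p-value of 0.0401 (0.0401 to 0.865 over all alternatives).

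The Hippo pathway, on which merlin acts, was represented by 23 genes, of which 22 were tested. Of these 13 were higher and 9 lower, the median log2 fold change being 0.12. Groups without overlap were found for 2 higher and 3 lower genes, not all of which are named below. Lats2, a kinase that merlin brings to the membrane, averaged 20.9 CPM ± 4.06 (SD, n = 3) with AAV-GFP against 11.6 CPM ± 2.73 (SD, n = 4) with AAV-GSTA4, without overlap. Its co-activator Mob1a was at 46.8 CPM ± 15.2 and 72.1 CPM ± 11.5, and the transcription factor gene Tead1 at 17.4 CPM ± 4.06 and 11.5 CPM ± 0.998, both without overlap. Adjusted p-values of the 3 lay between 0.363 and 0.415 in edgeR's test. For Mob1a the log2 fold change went from 0.62 to 0.38 without AAV-GFP replicate 3 and to 0.21 with the rod marker covariate, and for Tead1 from -0.60 to -0.27 with the latter and to -0.94 with library totals. Among targets of the pathway, Ccn1 had a log2 fold change of 0.54 ± 0.28 (SE) and Ccn2 of -0.11 ± 0.22 (SE). Ankrd1, at 1.08 CPM in AAV-GFP and 0.578 CPM in AAV-GSTA4, had -0.88 ± 1.35 (SE). None passed the threshold, and no direction was read from them.

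**Figure D4:**
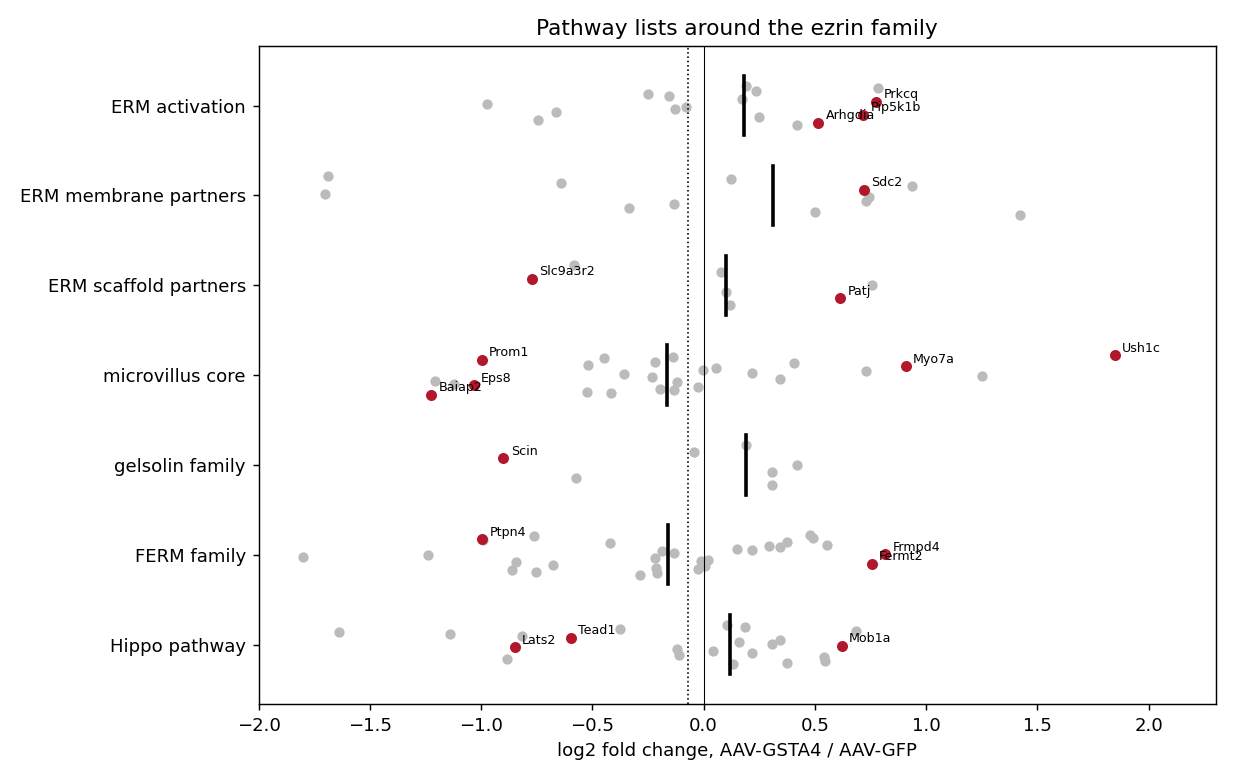
log2 ratio of AAV-GSTA4 to AAV-GFP (horizontal axis) for each tested gene of the 7 lists (rows); red points are the genes named by rule, grey points the others, the thick bar is the list's median and the dotted line the median of all genes (-0.07). Medians run from -0.17 for the microvillus core to 0.31 for the membrane partners, and each list has genes on both sides of 0.

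Among 7300 other genes averaging a log2 CPM of at least 4, those whose pattern over the 7 libraries was most like that of Ezr were ranked by the root mean square difference of centred log2 CPM. The closest was Intu, a planar cell polarity and ciliogenesis gene, at 0.07, with 11.4, 12.7 and 8.23 CPM in AAV-GFP and 26.9, 18.5, 26.3 and 19.1 CPM in AAV-GSTA4. The next were Cog7, of the Golgi tethering complex, at 0.11, Lgals3bp, a secreted glycoprotein, at 0.11, Pcx, the pyruvate carboxylase gene, at 0.12, and Nuak2, a kinase related to AMPK, at 0.12. In all 5 AAV-GSTA4 replicates 1 and 3 were the highest libraries, which follows from their choice by likeness to Ezr over these same libraries. Slc9a3r1 ranked 181 with a difference of 0.25, Nf2 ranked 509 with 0.33, Msn ranked 938 with 0.39 and Rdx ranked 3022 with 0.55.

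The promoters of the 3 genes with the higher values in AAV-GSTA4 (the highest positive fold changes of the 6) are shown for their motifs; for Nf2 the table holds more than 1 start site, and the first is printed. Each is the 250 bases before the RefSeq start site (GRCm38.p6), 5′ to 3′ on the gene's strand, with motif matches in capitals. Searched on both strands were the E-box CACGTG, the MITF-type box CATGTG, the OTX-type TAATCC, the TEAD-type GGAATG, the AP-1 site TGACTCA, the GC box GGGCGG and the CCAAT box; no matches overlapped.
Ezr promoter, chr17:6782781-6783030, minus strand: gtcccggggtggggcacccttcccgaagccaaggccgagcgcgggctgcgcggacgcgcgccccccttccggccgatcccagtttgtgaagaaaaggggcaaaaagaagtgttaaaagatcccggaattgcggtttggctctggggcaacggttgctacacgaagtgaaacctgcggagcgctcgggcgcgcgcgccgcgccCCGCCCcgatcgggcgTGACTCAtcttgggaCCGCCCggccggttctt
Slc9a3r1 promoter, chr11:115163091-115163340, plus strand: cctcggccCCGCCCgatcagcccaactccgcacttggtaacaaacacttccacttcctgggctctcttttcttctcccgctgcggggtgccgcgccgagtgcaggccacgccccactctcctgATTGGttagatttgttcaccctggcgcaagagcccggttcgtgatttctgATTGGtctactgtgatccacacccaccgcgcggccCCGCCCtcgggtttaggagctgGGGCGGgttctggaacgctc
Nf2 promoter, chr11:4849545-4849794, minus strand: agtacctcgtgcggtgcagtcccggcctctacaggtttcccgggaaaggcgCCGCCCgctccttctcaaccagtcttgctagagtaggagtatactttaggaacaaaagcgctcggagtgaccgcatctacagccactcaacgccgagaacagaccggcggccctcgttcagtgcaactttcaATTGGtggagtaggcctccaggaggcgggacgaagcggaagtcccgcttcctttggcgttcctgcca
The GC box was found in all 3, with 2 matches in Ezr, 3 in Slc9a3r1 and 1 in Nf2. Among the other members it was found in Msn, with 3 matches, and in Vil1, with 1 match, but not in Rdx. It occurred in 32.7% of 32851 promoters. The CCAAT box was found in Slc9a3r1, with 2 matches, and in Nf2, with 1 match, and occurred in 33.8% of promoters. The AP-1 site was found in Ezr alone of the 3, at -32 from the start site, and occurred in 4.46% of promoters. The E-box, the MITF-type, the OTX-type and the TEAD-type letters were in none of the 3 windows, against 6.02%, 12.3%, 6.25% and 12.6% of promoters. A match is a description of these letters and not a measured binding site.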

How the data were processed

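Per the labels' protocols, total RNA was isolated with TRIzol, and libraries were built from SMART-Seq full-length cDNA with Nextera XT. The authors deposited 1 table of raw read counts per gene symbol; STAR 2.7.1a, featureCounts 1.6.2 and the builds GRCm38 and mm10 are among those named, without roles, in the submitters' processing notes. The annotation, strand setting and multi-mapping rule are not given in the sources used here. All 7 count columns were matched to libraries by library name; titles number the replicates, and 26 rows repeating a symbol were kept as separate rows.

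Counts were tested with edgeR 4.0.16 (quasi-likelihood F-test, robust; R 4.3.3), with the group as the only factor, TMM scaling, the default expression filter and Benjamini-Hochberg adjustment over all genes tested, at a threshold of 0.05; the procedure was tested on simulated counts. Each standard error is the absolute log2 fold change over the root of its F statistic. Log2 CPM used a prior count of 2; means and SDs are of TMM-scaled CPM. Alternatives used DESeq2 1.42.0 and limma 3.58.1 (voom), other scalings and filters, covariates, replicate blocks and libraries left out. The 3 counts taken as the limit of detection were 0.111 to 0.176 CPM. Intervals on single libraries are Wilson intervals at 95%. Replicates differed by more than sampling noise (chi-square per gene at least 57.5). Whether equal replicate numbers pair libraries is not stated, so the main fit used no pairs.

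The members and lists were chosen with earlier results of these data known. Named from each list were genes with an unadjusted p-value under 0.05 and no overlap between groups (at most 5), or else the largest change among genes averaging a log2 CPM of at least 2, and the 5 genes most like Ezr. Slk, Stk10, Ppp1cb, Ppp1r12a, Selplg, Rlbp1, Ccn1, Ccn2, Csf1r, Apoe, Car14, Slc1a3, Best1, Cd44 and Podxl, the promoter motifs, and the Y-linked and ocular surface covariates were chosen after values were seen. So were Prkca, Pip5k1a, Pip5k1c and Ankrd1. Promoters of all 6 members were matched by symbol in RefSeq tables (GRCm38.p6).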

Additional observations from a re-analysis of the deposited data

Results flagged for a closer look

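Radixin in AAV-GSTA4 replicate 3 lay apart from its group: Rdx was at 86.0 CPM there and at 109 to 109.95 CPM in the other 3 libraries, and the gap to the nearest was 0.950 of the group's range. Among 32 sets of AAV-GSTA4 values checked for a lone library, 1 met the criterion, where chance gives about 5%.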

How the results depend on the processing

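Ezr, Slc9a3r1 and Nf2 stayed higher in AAV-GSTA4 in all alternative fits. On the log2 scale they ran from 0.66 to 1.12 for Ezr, 0.46 to 1.08 for Slc9a3r1 and 0.29 to 0.81 for Nf2. The lowest Ezr value, 0.66, came with the RPE marker covariate. With 1 library left out in turn the ranges were 0.86 to 1.12, 0.75 to 1.08 and 0.51 to 0.75. Division by the RPE marker level of the same library was not among these fits. On that scale the groups overlapped for each of these genes, and AAV-GFP replicate 3 was the highest library. Rdx turned lower with library totals (-0.17), limma-voom (-0.19), the rod (-0.38) and RPE (-0.28) marker covariates, without AAV-GFP replicate 3 (-0.20; -0.20 to 0.31 over the libraries left out) and without that library and AAV-GSTA4 replicate 2 (-0.23). Msn turned lower with the rod marker covariate (-0.079). Vil1 turned higher with limma-voom (0.066), the rod (0.18) and RPE (0.24) covariates, without AAV-GFP replicate 3 (0.079; -1.002 to 0.079 over the libraries left out) and without both libraries (0.31). Vil1 had no value with at least 10 counts required in every library. The cause of these turns was not tested. Msn was 0.05 with the RPE covariate. Of the 5 genes tested, 0 passed the adjusted threshold under any alternative.

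The number of genes past the adjusted threshold, 0 of 15075, was 166 in DESeq2, 0 to 1 with 1 library left out (hGSTA4, without AAV-GSTA4 replicate 3) and 0 elsewhere except under a replicate block. With a block by the titles' numbers or by the library names' numbers it was 1, the hGSTA4 row, and the log2 fold change of Ezr was 1.09 and 1.10. Libraries with the same number did not deviate together (correlations of -0.13 to 0.01). These few correlations cannot show that the libraries were unpaired. No source used here states pairs, so the numbers were not taken as pairs. Library totals shifted the all-gene median from -0.07 to -0.37, and the share of positive values among genes with an unadjusted p-value under 0.05 from 44.3% to 11.1%. Relative to that median Ezr was at 1.07 with TMM and 1.10 with totals, Slc9a3r1 at 0.94 and 0.96, Nf2 at 0.67 and 0.66, Msn at 0.57 and 0.63, Rdx at 0.14 and 0.20 and Vil1 at -0.64 and -0.74. The covariates for Y-linked counts and ocular surface markers and the fit without both libraries were chosen after seeing the data. Vil1 had 7 to 44 counts per library, the fewest of the 6.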

Other observations

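Among the membrane partners of ERM proteins, a pair of well-known ligands varied with single libraries; both were chosen here after their values were seen. Cd44, the hyaluronan receptor, was at 17.6, 22.3 and 18.8 CPM across AAV-GFP replicates 1, 2 and 3, in order, and at 24.6, 153, 11.3 and 21.3 CPM across AAV-GSTA4 replicates 1 through 4, so the mean of AAV-GSTA4 rested on replicate 2, the library with the most lens markers. Podxl, the gene of the sialomucin podocalyxin, was at 9.18, 19.8 and 45.9 CPM in AAV-GFP and at 10.3, 6.43, 8.28 and 5.79 CPM in AAV-GSTA4. AAV-GFP replicate 3, the highest for Podxl, also had the highest sums of endothelial markers, 180.0 CPM, and of rod markers, 34992 CPM. Its sum of RPE markers, 21523 CPM, was the lowest. Which cells the Podxl reads came from was not tested.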
